A study of Mus musculus with 17 samples.

Results

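MHC class II molecules, their loading chaperones and their transcriptional master switch were followed across mouse plasmacytoid dendritic cells (the dendritic cell type specialised in type I interferon). The genes were H2-Aa, H2-Ab1, H2-Eb1, H2-Eb2, H2-DMa, H2-DMb1, H2-Oa, H2-Ob, Cd74 and Ciita, and a probe set counted if it was annotated to exactly 1 of these symbols. Of the 10 genes, 9 had such a probe set, 1 each, among 19751 genes tested. The probe set of H2-DMb1 is shared with its near copy H2-DMb2 and is described separately.

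The cells came from bone marrow of C57BL/6 mice, whose age is not used here. Other cells were removed magnetically, and cells with intermediate CD11c that carried both B220 and Siglec-H were then sorted. The 17 arrays fall into 6 culture groups. Medium without additions had 2 arrays, replicates 1 and 3. Each of the other groups had 3: CpG-B with and without LIF, CpG-A with and without LIF, and LIF alone. LIF, a gp130 cytokine that activates STAT3, was added at 10 ng/ml for 20 to 24 h in all, starting 1 h before CpG where both were used. The TLR9 ligands CpG-A (2216) and CpG-B (1826), both short DNAs, were used at 6 µg/ml for 19 to 23 h. Nothing says whether replicates came from separate mice, so p-values measure the spread between these arrays, which may be technical.

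Class II molecules are pairs of an alpha and a beta chain that show peptides from endosomes to CD4 T cells. Newly made pairs are held by the invariant chain (Cd74), whose remnant in the groove is exchanged for peptide by H2-DM. H2-O, a relative of H2-DM found mainly in B cells and some dendritic cells, holds H2-DM back. Ciita is the coactivator that the class II genes, Cd74, H2-DM and H2-O depend on to differing degrees, and it acts through factors bound at paired promoter elements, the X and Y boxes. Ciita itself has alternative promoters, and plasmacytoid dendritic cells are known to use the one shared with B cells. C57BL/6 mice carry a disabled H2-Ea gene and therefore show no I-E molecule at the surface, although H2-Eb1 is transcribed.

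The class II genes lie together on chromosome 17 in the order H2-Oa, Brd2, H2-DMa, H2-DMb2, H2-DMb1, Psmb9, Tap1, Psmb8, Tap2, H2-Ob, Gm20506, H2-Ab1, H2-Aa, H2-Eb1, H2-Eb2 and H2-Ea, while Ciita and Cd74 lie on other chromosomes. RefSeq promoters (250 bases before and 50 after the start site, GRCm38.p6) matched 7 of the 10 symbols. They are shown because X and Y boxes are where Ciita is known to act on class II genes. H2-Ab1, Cd74 and Ciita were not matched. The search used GNAAC as the core of the X box and GATTGG as that of the Y box, with the Y core beginning 20 to 35 bases after the X core on the strand of the gene. The 2 letter patterns do not overlap at this spacing, and they were chosen with these sequences in view. The spaced pair was present in 6 of the 7 promoters, against 0.469% of all 32851 promoters of the same length (0.944% on either strand). Alone, GATTGG occurred in 16.1% and GNAAC in 84.8% of promoters on either strand. Each stretch below is written 5′ to 3′ along the gene, with both cores in capitals.
H2-Aa, chr17:34287855-34287916, minus strand: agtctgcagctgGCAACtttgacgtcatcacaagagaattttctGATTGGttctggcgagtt
H2-Eb1, chr17:34305764-34305824, plus strand: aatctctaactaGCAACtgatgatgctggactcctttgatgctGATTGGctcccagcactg
H2-Eb2, chr17:34325531-34325591, plus strand: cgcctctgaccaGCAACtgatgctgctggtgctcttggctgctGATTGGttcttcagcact
H2-DMb1, chr17:34153085-34153146, plus strand: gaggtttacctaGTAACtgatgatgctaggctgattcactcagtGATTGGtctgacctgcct
H2-Oa, chr17:34092291-34092352, plus strand: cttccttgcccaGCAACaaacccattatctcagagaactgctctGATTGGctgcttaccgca
H2-Ob, chr17:34238806-34238864, plus strand: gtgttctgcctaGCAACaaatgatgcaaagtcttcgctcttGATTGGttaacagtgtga

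From the first base of the X core to the first base of the Y core, the distance was 29 bases in H2-Ob, 31 in H2-Eb1 and H2-Eb2, and 32 in H2-Aa, H2-DMb1 and H2-Oa. The X core began at position -132 from the start site in H2-Eb2, -94 in H2-DMb1, -91 in H2-Eb1, -87 in H2-Ob, -81 in H2-Aa and -76 in H2-Oa. Neither of the H2-DMa start sites has the spaced pair in its window, nor does H2-DMb2, the near copy that shares the H2-DMb1 probe set, which says only that these letters are not there. The letter match is a description and was not set against binding data.

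**Figure D1:**
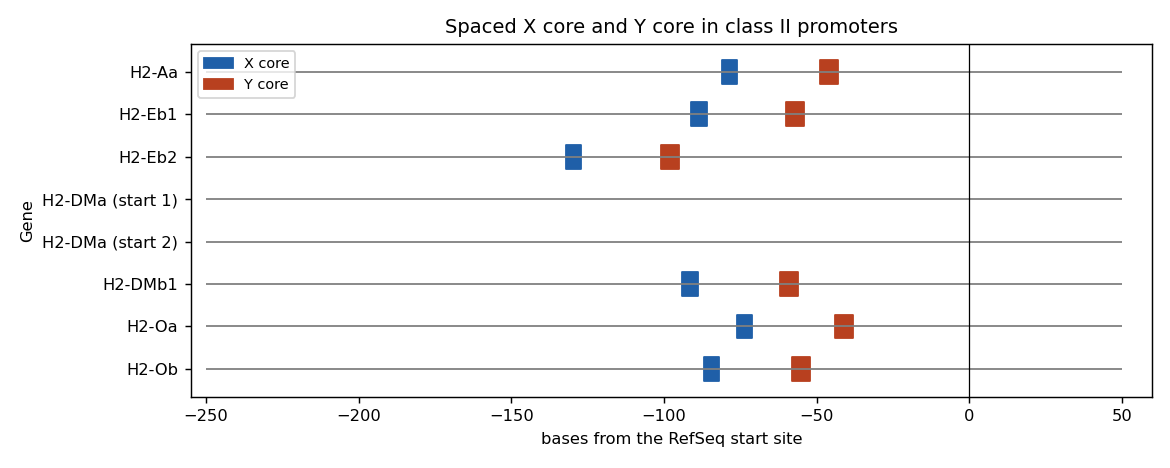
Positions of the X core (blue) and the Y core (red) in RefSeq promoters of class II genes, in bases from the start site (vertical line); grey lines show the window searched. In 6 of the 7 genes the Y core follows the X core by 29 to 32 bases; both H2-DMa windows lack the pair.

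The deposited intensities have lost their decimal mark, which leaves each log2 value undetermined by any whole number of periods of log2(10), or 3.32. A difference between groups is therefore given as its nearest reading, between -1.66 and 1.66 on the log2 scale, ± SE. A called gene (adjusted p under 0.05 in limma, over all 19751 genes) is said to read higher or lower where the reading is at most 1.11 in size (2.15-fold), since the alternative would be an opposite change of 4.64-fold or more. For larger readings both possibilities are given and no direction. Expression levels cannot be recovered, so genes cannot be ranked by level. Nor can the presence of plasmacytoid dendritic cell markers be checked by level, although 14 of 16 listed markers have a probe set.

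**Figure D2:**
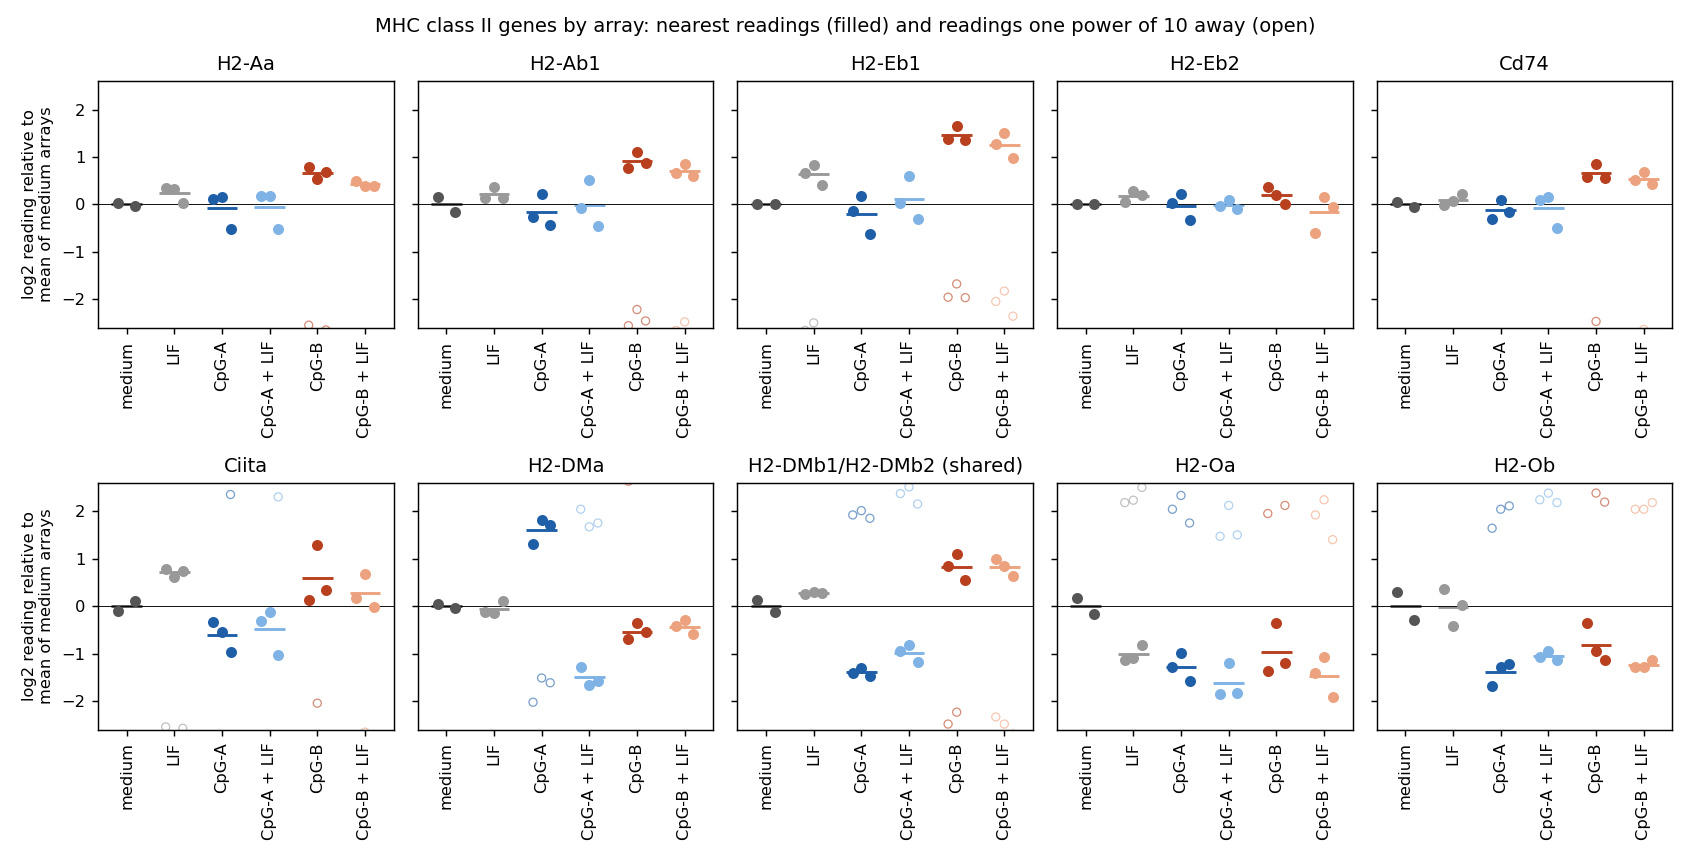
Log2 reading of each array relative to the mean of the medium arrays, for the 9 genes with a probe set of their own and the probe set shared by H2-DMb1 and H2-DMb2; filled points are nearest readings, open points the same arrays a power of 10 away, and bars are group means. On nearest readings, CpG-B arrays lie above the medium arrays for H2-Aa, H2-Ab1, H2-Eb1 and Cd74, while CpG-A arrays lie around them. The direction for H2-Eb1 is not settled.

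The clearest feature was the split between the CpG classes in the peptide-presenting chains and the invariant chain. With CpG-B, H2-Ab1 read 0.92 ± 0.23 higher than in medium, H2-Aa 0.67 ± 0.21 and Cd74 0.66 ± 0.18. With CpG-A none of the 3 was called, at -0.15 ± 0.23, -0.09 ± 0.21 and -0.13 ± 0.18. The lysosomal partners H2-DMa, H2-Oa and H2-Ob were called against medium with both oligonucleotides, and with CpG-B each of them read lower. The probe set shared by H2-DMb1 and H2-DMb2, outside the 9 genes, went the other way with CpG-B, at 0.82 ± 0.16 higher than in medium. Called genes numbered 7 of 9 in CpG-B vs medium (3 higher, 3 lower and 1 without a settled direction). Of all genes 19.2% were called there, 6.94% higher, 7% lower and 5.27% without a settled direction. In CpG-A vs medium the count was 3 of 9, with no settled direction, against 16.7% of all genes called and 4.64% without a settled direction. The median reading of the 9 was 0.59 with CpG-B and -0.15 with CpG-A, beside -0.05 and -0.02 over all genes. Both comparisons share the 2 medium arrays, and in bulk RNA fewer cells that express a gene and less RNA per cell cannot be told apart.

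H2-Ab1 encodes the I-A beta chain. Relative to the medium mean, its medium arrays stood at 0.15 and -0.15, its CpG-A arrays at -0.26, 0.22 and -0.43, and its CpG-B arrays at 0.77, 1.11 and 0.87. The 3 CpG-B arrays lay above every medium and CpG-A array, and the CpG-A arrays spread around medium. The change with CpG-B corresponds to 1.89-fold (adjusted p = 0.00714), and CpG-A vs CpG-B gave -1.07 ± 0.20 (adjusted p = 0.00137).

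H2-Aa encodes the I-A alpha chain that pairs with it. Its medium arrays stood at 0.04 and -0.04, its CpG-A arrays at 0.11, 0.16 and -0.52, and its CpG-B arrays at 0.78, 0.54 and 0.68. Again the CpG-B arrays were all above the others, while CpG-A replicate 3 lay below the rest. Both chains thus read higher with CpG-B, H2-Aa by 1.59-fold against medium (adjusted p = 0.031) and by 1.68-fold against CpG-A (-0.75 ± 0.19 for CpG-A minus CpG-B, adjusted p = 0.0104). Without CpG-A replicate 3 the latter fell short of the threshold, at -0.53 (adjusted p = 0.0726; range over alternatives 0.00355 to 0.0726).

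Cd74, the invariant chain, is encoded on another chromosome. Its medium arrays stood at 0.06 and -0.06, its CpG-A arrays at -0.31, 0.10 and -0.16, and its CpG-B arrays at 0.57, 0.86 and 0.55. The groups separated as they did for the I-A chains, with CpG-B above and CpG-A around medium. The adjusted p-values were 0.0142 for CpG-B vs medium and 0.00271 for CpG-A vs CpG-B, where the reading was -0.79 ± 0.16.

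H2-Eb1, the I-E beta chain, gave the largest reading of the chains with CpG-B. Both medium arrays stood at 0 to 2 decimals, the CpG-A arrays at -0.13, 0.18 and -0.63, and the CpG-B arrays at 1.37, 1.65 and 1.36. The CpG-B arrays did not overlap with medium or CpG-A, but the size passes the limit on direction. The reading against medium was 1.46 ± 0.24 (or -1.86), with adjusted p = 0.000255, and CpG-A vs CpG-B read -1.65 ± 0.22 (or 1.67), with adjusted p = 4.91e-05. These 2 readings are equally near, and across alternatives the nearest one ran from -1.65 to 1.64. H2-Eb2, a related beta chain gene, was not called in any of the comparisons, and its readings against medium were -0.02 ± 0.19 with CpG-A and 0.20 ± 0.19 with CpG-B.

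H2-Ea, the disabled gene at the end of the locus, was not called in any of the 9 group comparisons, where its readings ran from -0.10 to 0.17 with SEs of 0.12 to 0.13. Its CpG-A arrays stood at 0.08, 0.08 and -0.04 relative to medium, and its CpG-B arrays at -0.01, 0.00 and 0.09. Whether this probe set was above background cannot be read from the table.

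Ciita, the coactivator, was called between the CpG classes, without a settled direction, and in neither comparison with medium. Its medium arrays stood at -0.10 and 0.10, its CpG-A arrays at -0.33, -0.54 and -0.97, and its CpG-B arrays at 0.13, 1.28 and 0.35. On nearest readings CpG-A arrays lay below medium and CpG-B arrays above it, with CpG-B replicate 2 far from the other CpG-B arrays. Neither comparison with medium was called, at -0.61 ± 0.30 with CpG-A (95% interval -1.24 to 0.02, adjusted p = 0.202) and 0.59 ± 0.30 with CpG-B (95% interval -0.04 to 1.22, adjusted p = 0.208). CpG-A vs CpG-B was called, at -1.20 ± 0.27 (or 2.12), with adjusted p = 0.00491.

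H2-DMa encodes the alpha chain of the peptide exchange factor. Its medium arrays stood at 0.04 and -0.04 and its CpG-B arrays at -0.69, -0.36 and -0.55. CpG-B arrays were all below medium, and the reading was -0.53 ± 0.17 (adjusted p = 0.0313). With CpG-A the arrays stood at 1.30, 1.81 and 1.71, or 3.32 lower, and the group reading was 1.61 ± 0.17 (or -1.72), with adjusted p = 5e-06. CpG-A vs CpG-B read -1.18 ± 0.15 (or 2.14). Across these 3 groups the nearest readings of H2-DMa miss closure by 1 period, so they cannot all hold. With CpG-B as read, either H2-DMa was 3.28-fold lower with CpG-A than in medium, or it was 3.05-fold higher and CpG-A exceeded CpG-B by 4.41-fold. Placing the 17 arrays on a line that is broken at their widest gap gave -1.72 for CpG-A vs medium. The nearest readings around medium, LIF, CpG-A and CpG-A + LIF also miss closure by 1 period. CpG-A + LIF vs CpG-B + LIF read -1.06 ± 0.15. LIF added to CpG-A read 0.22 ± 0.15 and LIF added to CpG-B 0.10 ± 0.15, neither called. If these nearest readings hold with CpG-B as read, the lower option for CpG-A follows.

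The partner chain is measured by the probe set that H2-DMb1 shares with H2-DMb2, fitted together with every probe set of the table as an alternative chosen after seeing the data. Its medium arrays stood at 0.12 and -0.12, its CpG-A arrays at -1.40, -1.31 and -1.47, and its CpG-B arrays at 0.84, 1.09 and 0.55. The 3 groups were separate, and medium lay between the others on these nearest readings. CpG-B vs medium read 0.82 ± 0.16 higher (adjusted p = 0.0014) and CpG-A vs medium -1.40 ± 0.16 (or 1.93). The direct comparison CpG-A vs CpG-B read 1.10 ± 0.14 (or -2.22), with adjusted p = 7.73e-05. That is just inside the limit of 1.11, so by this rule it read higher with CpG-A. Here too the nearest readings cannot all hold. With CpG-B as read, 1.10 goes with 1.93 for CpG-A vs medium, and -2.22 goes with -1.40. H2-DMa and the shared H2-DMb probe set thus had readings of opposite sign in CpG-B vs medium, a difference that was not tested.

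H2-Oa and H2-Ob encode the chains of H2-O. The medium arrays of H2-Oa stood at 0.17 and -0.17, its CpG-A arrays at -1.28, -0.99 and -1.57, and its CpG-B arrays at -1.37, -0.35 and -1.20. All CpG arrays were below medium on nearest readings. The CpG-B reading was -0.97 ± 0.28 (1.96-fold lower, adjusted p = 0.021) and the CpG-A reading -1.28 ± 0.28 (or 2.04), with adjusted p = 0.00353.

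For H2-Ob, the medium arrays stood at 0.30 and -0.30, the CpG-A arrays at -1.68, -1.28 and -1.21, and the CpG-B arrays at -0.36, -0.94 and -1.13. On nearest readings, CpG-B replicate 1 came within 0.06 of the lower medium array, and the other CpG arrays were well below it. The CpG-B reading was -0.81 ± 0.24 (1.75-fold lower, adjusted p = 0.021) and the CpG-A reading -1.39 ± 0.24 (or 1.93), with adjusted p = 4e-04. Across alternatives the nearest CpG-A reading of H2-Ob ran from -1.48 to 1.63. For H2-Oa and H2-Ob the CpG classes were not told apart, at -0.31 ± 0.25 (adjusted p = 0.517) and -0.58 ± 0.21 (adjusted p = 0.0896) for CpG-A minus CpG-B.

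In CpG-A vs CpG-B, 6 of the 9 genes were called, 3 lower with CpG-A (H2-Aa, H2-Ab1 and Cd74) and 3 without a settled direction (H2-Eb1, H2-DMa and Ciita). Of all genes 13% were called, 6.14% lower and 2.4% without a settled direction. The 9 nearest readings were below 0, that of H2-Eb1 only just on this side of the period, and their median was -0.79 beside 0.04 over all genes. The share of all genes below 0 was not counted. The probe set shared by H2-DMb1 and H2-DMb2, outside the 9, read 1.10 ± 0.14 (or -2.22) here. The same comparison in the presence of LIF uses other arrays. There 4 of 9 were called (3 lower), against 16.9% of all genes, 8% lower and 3.27% without a settled direction, with H2-Ab1 at -0.70 ± 0.20 (adjusted p = 0.0223), Cd74 at -0.63 ± 0.16 (adjusted p = 0.0115), H2-DMa at -1.06 ± 0.15 (adjusted p = 7.25e-05) and H2-Eb1 at -1.14 ± 0.22 (or 2.19). H2-Aa (-0.49 ± 0.19, adjusted p = 0.0876) and Ciita (-0.77 ± 0.27, adjusted p = 0.0573) were not called. H2-Ab1 lost its call in the fit of the compared groups alone (-0.70), and without CpG-A + LIF replicate 1 (-0.67) or 3 (-0.48) or CpG-B + LIF replicate 1 (-0.72) or 2 (-0.63). Cd74 lost its call without CpG-A + LIF replicate 3 (-0.42) or CpG-B + LIF replicate 2 (-0.55). Among markers of other cells that carry class II, 3 of 9 B cell markers were called in CpG-A vs CpG-B (1 higher, 2 without a settled direction) and 3 of 10 conventional dendritic cell markers (2 higher, 1 lower). So were 3 of 8 monocyte or macrophage markers (1 higher, 2 without a settled direction). Of the plasmacytoid dendritic cell markers 11 of 14 were called there, 8 of them higher with CpG-A. In CpG-B vs medium the calls were 11 of 14 plasmacytoid dendritic cell markers (2 higher, 3 lower), 7 of 10 conventional dendritic cell markers (2 higher, 3 lower), 5 of 8 monocyte or macrophage markers (1 lower), 3 of 9 B cell markers and 1 of 6 T or NK cell markers, the rest without a settled direction. In CpG-A vs medium they were 7 of 14, 4 of 10, 4 of 8, 5 of 9 and 0 of 6 by limma in the same order. Of these calls, 2 plasmacytoid and 1 conventional dendritic cell marker read higher. Lower readings came from 3 plasmacytoid, 1 conventional dendritic cell and 3 B cell markers, and the rest had no settled direction. Of all genes 19.2% were called in CpG-B vs medium and 16.7% in CpG-A vs medium. The part of these markers in the class II result was not tested, and the level of any marker is unknown.

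The calls against medium rest on few arrays. In CpG-B vs medium the 7 calls fell to 2 without medium replicate 1, 2 without medium replicate 3, 4 without CpG-B replicate 1 and 3 without CpG-B replicate 3. Over all genes the calls went from 3795 to 2583, 2451, 3143 and 3310 in the same order. H2-Eb1 kept its call under every alternative (adjusted p from 1.97e-05 to 0.00528). H2-Ab1 lost its call without medium replicate 3 (0.77; range over alternatives 0.00205 to 0.102). Cd74 lost its call without either medium array or CpG-B replicate 2 (also with replicate number 2 left out of every group), with readings of 0.72, 0.60 and 0.56 (range of adjusted p over alternatives 0.0102 to 0.115). H2-Aa lost it without either medium array, CpG-B replicate 1 or CpG-B replicate 3, with readings of 0.70, 0.63, 0.61 and 0.66 (0.0102 to 0.16). H2-DMa and H2-Oa each lost it without the same 4 arrays (0.0242 to 0.172 and 0.000535 to 0.184), with readings of -0.49, -0.58, -0.45 and -0.53 for H2-DMa and -0.81, -1.14, -0.77 and -0.86 for H2-Oa. Re-centred arrays also ended the call of H2-DMa (-0.49, adjusted p = 0.0553). H2-Ob lost it without medium replicate 1 (-0.51), CpG-B replicate 2 (-0.74) or CpG-B replicate 3 (-0.65), and with replicate number 2 left out of every group (-0.74), within a range of 0.00431 to 0.306. In CpG-A vs medium, H2-Oa lost its call without medium replicate 1 (-1.12; 0.000193 to 0.0635).

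**Figure D3:**
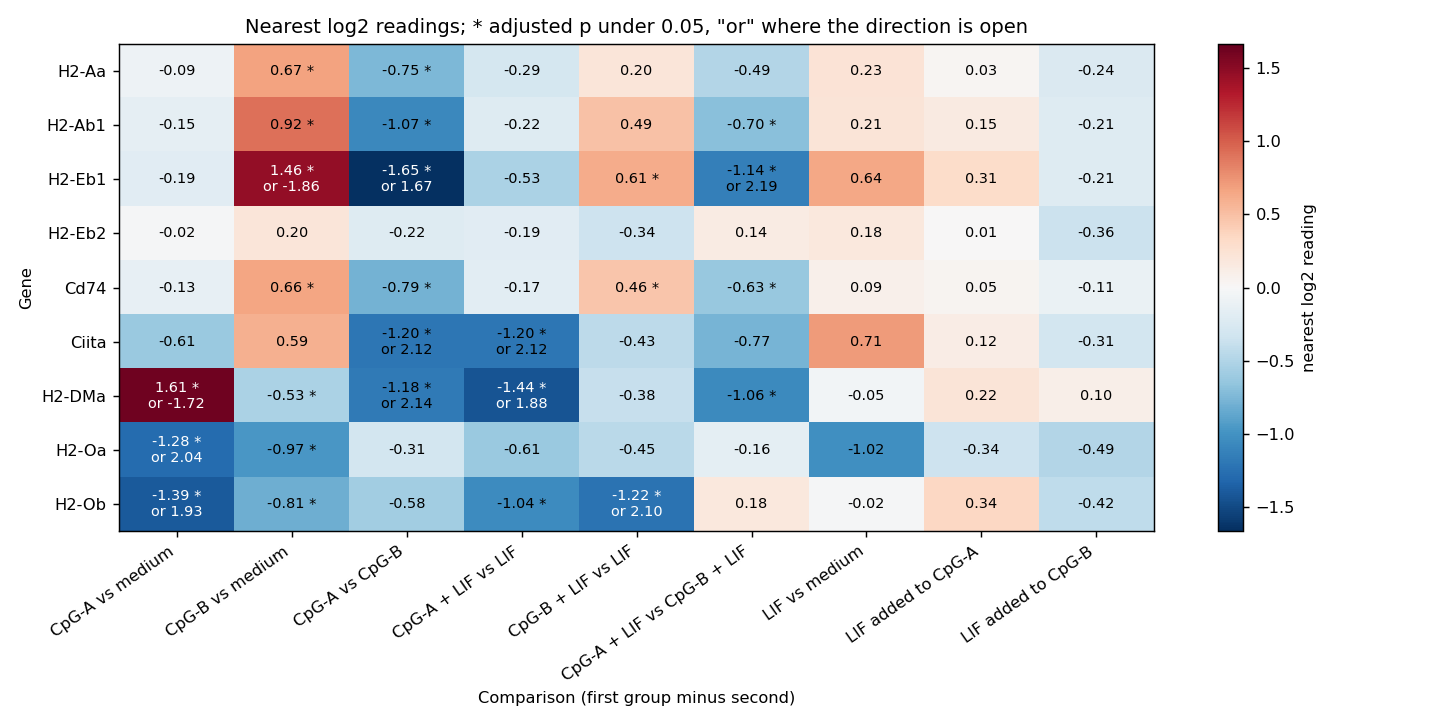
Nearest log2 readings of the 9 genes in the 9 group comparisons, as first group minus second; an asterisk marks an adjusted p under 0.05, and "or" gives the other possible reading where the direction is not settled. The CpG-A vs CpG-B column reads below 0 throughout, and the 3 columns for the addition of LIF hold no asterisk.

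LIF vs medium asked whether LIF alters the resting state. No class II gene was called by limma (0 of 9, against 0.81% of all genes), and 3 of 9 had an unadjusted p under 0.05, as did 10.3% of all genes. Those 3 were H2-Oa, Ciita and H2-Eb1. The LIF arrays of H2-Oa stood at -1.14, -1.09 and -0.82, all below the medium arrays, with a reading of -1.02 ± 0.28 (95% interval -1.61 to -0.42, adjusted p = 0.136). The LIF arrays of Ciita stood at 0.78, 0.61 and 0.75, above both medium arrays, with a reading of 0.71 ± 0.30 (adjusted p = 0.404). Those of H2-Eb1 stood at 0.67, 0.83 and 0.42 (0.64 ± 0.24, adjusted p = 0.343). These groups did not overlap, yet the differences did not pass the test across all genes. The LIF and medium arrays of H2-Aa and H2-Eb2 did not overlap either, with readings of only 0.23 ± 0.21 and 0.18 ± 0.19. The share of all genes without overlap was not counted. H2-Oa was called under 2 of 13 alternatives, among them replicate number 2 left out (-0.98, adjusted p = 0.0385; range over alternatives 0.0137 to 0.597). For H2-Ab1, H2-Aa and Cd74 the 95% intervals around the nearest readings were -0.27 to 0.69, -0.21 to 0.67 and -0.29 to 0.47.

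Adding LIF to either CpG gave no call among the 9 genes, against 0.00506% of all genes with CpG-A and 0.0608% with CpG-B. At an unadjusted p under 0.05 the count was also 0 of 9 in both, beside 6.08% and 7.74% of all genes. With the replicate number as a block, which pairs the CpG-B and CpG-B + LIF arrays, LIF added to CpG-B again called 0 of 9, while the count over all genes went from 12 to 19. With CpG-A, 8 of 9 nearest readings were above 0 (median 0.12), and with CpG-B, 1 of 9 was (median -0.24), beside a median of 0 over all genes in both. The share of all genes above 0 was not counted, and the genes often deviated together within an array. No opposite effect of LIF is therefore read from these counts. H2-Ab1 stood at -0.07, 0.51 and -0.45 with CpG-A + LIF and at 0.67, 0.85 and 0.59 with CpG-B + LIF. These 2 groups did not overlap. The LIF effect on H2-Ab1 was 0.15 ± 0.20 (95% interval -0.28 to 0.58) with CpG-A and -0.21 ± 0.20 (-0.64 to 0.21) with CpG-B.

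The interaction of LIF with each CpG, the LIF effect under CpG minus that in medium, was called in 0 of 9 genes, against 0.0506% of all genes for CpG-A and 0.137% for CpG-B. At an unadjusted p under 0.05 the counts were 0 and 2, beside 7.03% and 9.87% of all genes. Those 2 were Ciita (-1.02 ± 0.40, adjusted p = 0.399) and H2-Eb1 (-0.85 ± 0.33, adjusted p = 0.388), both with CpG-B. LIF added to CpG-B gave -0.31 ± 0.27 for Ciita and -0.21 ± 0.22 for H2-Eb1.

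Against LIF-treated cells, CpG-A + LIF called 3 of 9 genes, 1 lower and 2 without a settled direction. Of all genes 17.4% were called, 7.29% lower and 3.85% without a settled direction. CpG-B + LIF called 3 of 9, 2 higher and 1 without a settled direction, against 25.4% of all genes, 10.5% higher and 5.94% without a settled direction. H2-Ob was called in both, at -1.04 ± 0.21 (adjusted p = 0.00173) with CpG-A and -1.22 ± 0.21 (or 2.10) with CpG-B. Its LIF arrays stood at 0.36, -0.42 and 0.02, on nearest readings above all arrays with CpG and LIF. With CpG-B + LIF, H2-Eb1 (0.61 ± 0.22, adjusted p = 0.0492) and Cd74 (0.46 ± 0.16, adjusted p = 0.0469) passed the threshold narrowly, and were called in 7 and 6 of 14 alternatives. H2-Eb1 lost its call when unfolded at the widest gap (adjusted p = 0.0534) and with all probe sets with 1 symbol (adjusted p = 0.0519), and both lost it with every probe set of the table. Leaving out LIF replicate 1, LIF replicate 3, CpG-B + LIF replicate 1 or CpG-B + LIF replicate 2 ended both calls, with H2-Eb1 at 0.62, 0.50, 0.59 and 0.48 and Cd74 at 0.40, 0.52, 0.48 and 0.39. Cd74 also lost its call without LIF replicate 2 (0.45) or CpG-B + LIF replicate 3 (0.51), and with replicate number 2 left out (0.38). With CpG-A + LIF the other 2 calls were H2-DMa (-1.44 ± 0.15, or 1.88) and Ciita (-1.20 ± 0.27, or 2.12). The Ciita arrays stood at -0.32, -0.13 and -1.02 with CpG-A + LIF, on nearest readings below all 3 LIF arrays.

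Within an array, the genes often lay on the same side of their group means. Of the 9 genes, 0 were below their group mean in CpG-A replicate 2 and 9 in CpG-A + LIF replicate 3, whose median deviation was -0.41. In CpG-A replicate 3, 7 of 9 were below, with a median of -0.29. CpG-A + LIF replicate 2 had 1 of 9 below. CpG-B replicate 2 had 2 of 9 below and CpG-B replicate 3 had 8. For CpG-B + LIF, replicate 2 had 2 of 9 below and replicate 3 had 7. CpG-A replicate 1 and CpG-A + LIF replicate 1 had 5 of 9 below. The share of all genes below their group mean was not counted for these arrays.

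**Figure D4:**
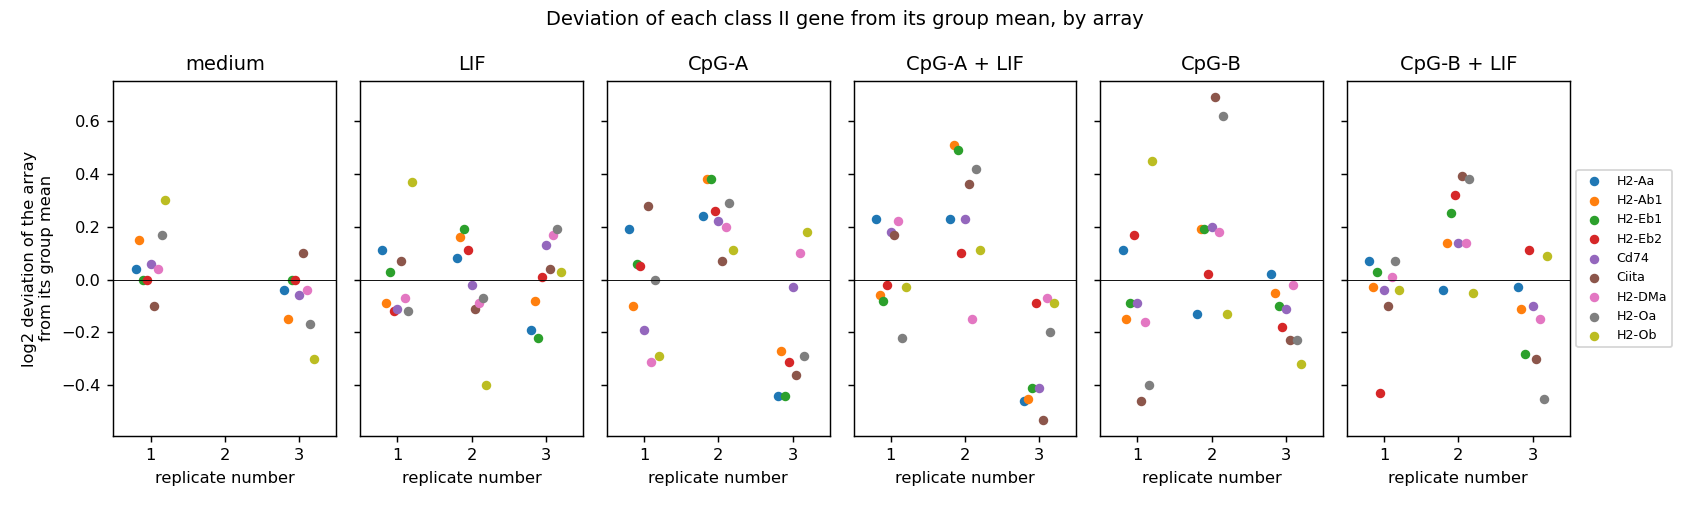
Log2 deviation of each array from its group mean for the 9 genes (colours), by replicate number, in the 6 groups. The genes lie mostly above 0 in replicate 2 and below 0 in replicate 3 of the CpG groups; CpG-A + LIF replicate 3 has all 9 below.

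Likeness of pattern was measured as the length of the mean resultant of the angle between 2 genes over the 17 arrays, which is 1 for identical profiles whatever their level. Cd74 was the gene most like H2-Ab1 of all genes tested, at 0.95, where the median gene had 0.58. The next were Nubp1 (0.94), Erap1 (0.913), Hint1 (0.91) and Cetn3 (0.91). For Cd74 the order was Sec31a (0.953), Fkbp1a (0.952), H2-Ab1 (0.95), Nubp1 (0.95) and Cetn3 (0.945), against a median of 0.701. The genes most like Ciita were less so: Lrrc42 (0.845), Ktn1 (0.792), Tdrd3 (0.789), Batf (0.788) and Ifi30 (0.783), against 0.444. For H2-Aa, Cd74 ranked 11 (0.919) and H2-Ab1 ranked 28 (0.907) of all genes, while Ciita ranked 2754 for H2-Ab1 (0.701). H2-Ob had 0.087 with H2-Eb1, the lowest value among pairs of the class II genes. These values share arrays and normalization and carry no p.

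The wider pathway was followed through lists of genes by role. Among 9 lysosomal enzymes that cut antigen and invariant chain, 4 were called in CpG-A vs medium (2 higher, 1 lower) and 4 in CpG-B vs medium (2 higher, 2 lower), where 16.7% and 19.2% of all genes were called. The median readings of the list were 0.10 and -0.14. Cathepsin S, Ctss, the main protease of the invariant chain in dendritic cells, was called in neither. Cathepsins L and B, Ctsl and Ctsb, read lower with CpG-B (-0.74 ± 0.24 and -0.53 ± 0.13) and higher in CpG-A vs CpG-B (0.74 ± 0.21 and 0.54 ± 0.12). Cathepsin Z (Ctsz) read higher with both, at 0.54 ± 0.15 with CpG-A and 0.74 ± 0.15 with CpG-B. Ctsc, which activates other proteases, read 0.47 ± 0.16 higher with CpG-A. Ifi30, a thiol reductase that opens disulfide bonds of antigens, read lower with CpG-A, at -0.88 ± 0.24 against medium and -0.68 ± 0.21 against CpG-B. The asparaginyl endopeptidase Lgmn read 0.84 ± 0.18 higher with CpG-B and 1.13 ± 0.18 (or -2.19) with CpG-A. Lgmn (0.86 ± 0.18) and Ctsc (0.71 ± 0.16) also read higher in LIF vs medium, with adjusted p-values of 0.0349 and 0.0406.

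Among 7 genes of class II turnover and surface control, 3 were called with each CpG against medium (16.7% and 19.2% of all genes), with median readings of -0.05 and -0.43. The ubiquitin ligase Marchf1, which removes class II from the surface, was not called against medium (-0.28 ± 0.18 with CpG-A, -0.43 ± 0.18 with CpG-B). Against LIF alone it read lower with CpG-A + LIF (-0.57 ± 0.16, adjusted p = 0.0196) and with CpG-B + LIF (-0.83 ± 0.16, adjusted p = 0.000822). Cd83, which opposes it, read 1.13 ± 0.28 (or -2.20) with CpG-A and -1.62 ± 0.28 (or 1.71) with CpG-B. CpG-A vs CpG-B read -0.58 ± 0.25 for Cd83 and was not called, so these nearest readings cannot all hold. The tetraspanin Cd37 read lower with CpG-A (-0.83 ± 0.15) and higher with CpG-B (0.84 ± 0.15), while CpG-A vs CpG-B read 1.65 ± 0.13 (or -1.67), of which the second fits the other 2 readings. Cd82, another tetraspanin, read -0.58 ± 0.14 with CpG-A and -1.55 ± 0.14 (or 1.77) with CpG-B, and 0.98 ± 0.13 in CpG-A vs CpG-B.

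Of 15 transcription factors that bind class II promoters or the Ciita gene, 14 had a probe set. Of them 5 were called against medium with CpG-A (1 higher, 3 lower) and 4 with CpG-B (1 higher, 2 lower), against 16.7% and 19.2% of all genes, with median readings of 0.05 and -0.22. Rfx5, a subunit of the complex at the X box, read higher with both, at 0.71 ± 0.19 and 0.84 ± 0.19. Its partner Rfxap read -0.78 ± 0.17 with CpG-A, as did Creb1 (-0.75 ± 0.18), which also binds near the X box, and Usf1 (-0.66 ± 0.22), which binds the Ciita gene. The Y box factors Nfya, Nfyb and Nfyc were called in neither. Irf4, a factor of the Ciita promoter used by B cells, read 1.66 ± 0.25 (or -1.66) with CpG-A and 1.24 ± 0.25 (or -2.08) with CpG-B. Irf8 read -0.54 ± 0.15 with CpG-B and Spib -0.74 ± 0.16, and both read higher in CpG-A vs CpG-B (0.51 ± 0.13 and 1.01 ± 0.15). Irf1, a mediator of interferon effects on Ciita, read 0.96 ± 0.20 higher in CpG-A vs CpG-B, where Creb1 read -0.49 ± 0.16.

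Of the listed repressors and brakes of Ciita expression, Prdm1, Bcl6 and Socs1, 0 of 3 were called by limma against medium with CpG-A, CpG-B or LIF. In LIF vs medium Prdm1 read 0.90 ± 0.22 (adjusted p = 0.0696) and Bcl6 1.03 ± 0.28 (adjusted p = 0.129), short of the threshold. Prdm1 was lower with CpG-A + LIF than with LIF alone (-0.98 ± 0.20, adjusted p = 0.00136).

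**Figure D5:**
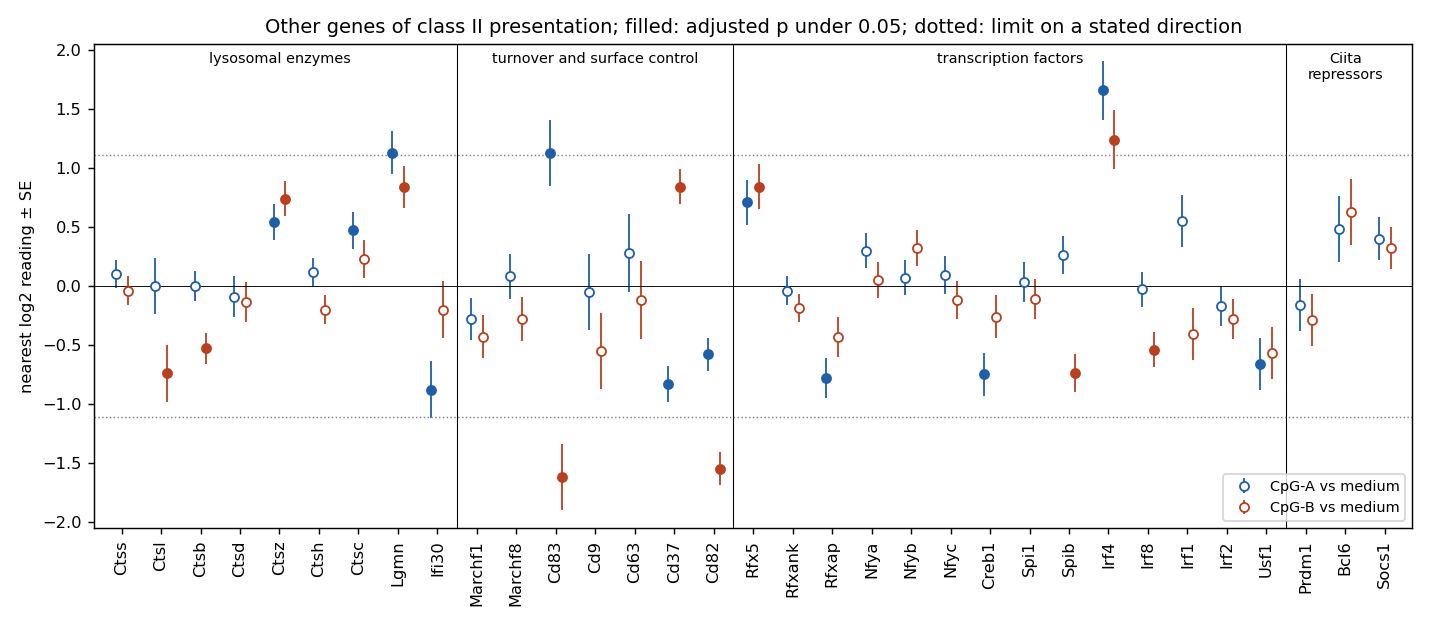
Nearest log2 readings ± SE of other genes of class II presentation in CpG-A vs medium (blue) and CpG-B vs medium (red); filled points have an adjusted p under 0.05, and dotted lines mark the limit of 1.11 beyond which no direction is given. Rfx5 and Ctsz lie above 0 with both oligonucleotides, and Cd37 lies on opposite sides.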

How the data were processed

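Total RNA was hybridised to single-colour Affymetrix arrays. The submitters' processing notes name RMA; for its version, the sources used here give nothing. The deposited table holds linear values whose decimal mark is lost (1 of 419560 cells kept it). No decimal place put the digits on a floating-point or fixed-decimal grid, so the planned restoration of marks was not possible. The planned fallback was used: circular group means over the period log2(10), with each array at its shortest way to its group mean. Of 24680 probe sets, 21354 carry 1 symbol, 1275 several and 2051 none; where a gene had several, the one listing most accessions was tested. All 17 arrays were fitted with 1 coefficient per group in limma 3.58.1 (R 4.3.3), with Benjamini-Hochberg adjustment over 19751 genes. No gene was filtered. The median SD within groups was 0.19. The number of arrays limits precision. The fit was tested on simulated data, with planted changes below the limit on direction and in CpG-A vs CpG-B only. Larger changes, which may fall on another period, and comparisons with medium were not tried. All 10 listed genes, their related genes and the pathway lists are named by fixed rules: pathway genes where called in a comparison of either CpG with medium or of both CpGs. A few that were not called are named too, chosen after their values were seen. The genes and lists were chosen with earlier results of these data known. Alternatives were a replicate block, each array left out, the groups compared alone, re-centring, robust variances, all probe sets with 1 symbol, unfolding at the widest gap, replicate number 2 left out, a stricter limit on direction, and, chosen after seeing the data, every probe set of the table. Replicate numbers were checked for pairing: deviations of same-numbered arrays correlated between -0.08 and 0.243 over 40 pairs (median 0.016), and those of differently numbered arrays between -0.146 and 0.108 (median -0.0095). Pairing was taken to hold between groups where every same-numbered pair exceeded 0.1, a cut that was not part of the plan. That was so for CpG-B and CpG-B + LIF (0.126, 0.243 and 0.143), where the replicate block changed no call among the class II genes. By this cut it was not so over the groups as a whole, although 14 of 17 arrays correlated best with an array of their own number. In other comparisons the block did change calls, as given below.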

Additional observations from a re-analysis of the deposited data

How the results depend on the processing

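Over all alternatives, 1387 of the readings by gene and comparison kept their side of the threshold, 46 lost a call, 16 gained one, and none of the called readings with a direction changed sign. Some called readings without a settled direction did change sign. In CpG-A vs medium, H2-DMa ran from -1.72 to 1.65 and H2-Ob from -1.48 to 1.63. In CpG-A vs CpG-B, H2-Eb1 ran from -1.65 to 1.64. Leaving out 1 array moved the number of called class II genes between 2 and 3 in CpG-A vs medium, 2 and 5 in CpG-B vs medium, 5 and 7 in CpG-A vs CpG-B, 2 and 5 in CpG-A + LIF vs CpG-B + LIF, 3 and 4 in CpG-A + LIF vs LIF, and 1 and 2 in CpG-B + LIF vs LIF; it stayed at 0 for LIF vs medium, both additions of LIF and both interactions. With the replicate block, 1 gene was called in LIF vs medium (H2-Oa, -1.18, adjusted p = 0.0137) and 5 in CpG-A + LIF vs LIF, and leaving out replicate number 2 gave the same counts, 1 (H2-Oa, -0.98, adjusted p = 0.0385) and 5. The block also called H2-Aa (adjusted p = 0.0417) and Ciita (adjusted p = 0.0247) in CpG-A + LIF vs CpG-B + LIF, and H2-Ab1 (adjusted p = 0.0158) in CpG-B + LIF vs LIF. It kept the other counts within 1.5 times, and 14 of 17 arrays correlated best with an array of their own number. With every probe set of the table, 1 gene was called in CpG-B + LIF vs LIF. The stricter limit on direction, 0.83, left 4 directions in CpG-B vs medium, 2 in CpG-A vs CpG-B, 2 in CpG-A + LIF vs CpG-B + LIF and 0 in CpG-A + LIF vs LIF. Under it H2-Ab1 had no settled direction in CpG-B vs medium or in CpG-A vs CpG-B, nor had H2-Oa in CpG-B vs medium. Directions were also lost for H2-DMa in CpG-A + LIF vs CpG-B + LIF and for H2-Ob in CpG-A + LIF vs LIF. The cause of these changes was not tested. The 9 genes tested have 1 probe set each, so no other probe set could be tried. Signal over background cannot be read from this table.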
